A study of Mus musculus with 18 samples.

Results

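The subject is the set of genes that encode the oxidative phosphorylation machinery, followed in the uterus of mice given doxorubicin and ovarian hormones. Members were chosen by symbol alone, as the Nduf, Sdh, Uqcr, Cox4 to Cox8, Atp5 and mt- rows of the deposited table, which gave 99 of 22238 symbols. Of these, 86 are nuclear genes and 13 are the protein-coding genes of mitochondrial DNA. The animals were ovariectomized adult CD-1 mice, an outbred stock, and total RNA of the whole uterus was sequenced. The groups were doxorubicin with estradiol (DOX_E2), saline vehicle with estradiol (PBS_E2), doxorubicin with progesterone (DOX_P4), vehicle with progesterone (PBS_P4), doxorubicin with oil (DOX_OIL) and vehicle with oil (PBS_OIL), with 3 libraries each. Doxorubicin is an anthracycline chemotherapy drug, and the series asks how it alters the uterine response to estrogen. The ovaries had been removed in all groups, the controls included, so hormone came only from the treatment. The labels name neither doses nor times of collection, nor do they say that each library is a separate animal. Every p-value below therefore rests on variation among these libraries, which may be technical.

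Oxidative phosphorylation makes most of the ATP of a resting cell. Complexes I and II pass electrons to ubiquinone, complex III hands them to cytochrome c, complex IV gives them to oxygen, and complex V, the ATP synthase, uses the proton gradient that the others build. Most subunits are encoded in the nucleus, made in the cytosol and imported, whereas a small core is encoded by mitochondrial DNA, which is transcribed as long precursors from both strands and cut into single RNAs. Complexes I, III, IV and V therefore need products of both genomes, while complex II is wholly nuclear. In the uterus, estradiol drives growth of the tissue and progesterone prepares it for implantation.

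By symbol the nuclear members comprised 37 genes of complex I, 4 of complex II, 8 of complex III, 19 of complex IV and 18 of complex V. The mt- members comprised 7 genes of complex I, 1 of complex III, 3 of complex IV and 2 of complex V. The filter on low counts kept 83 nuclear and 13 mt- members. Cox6a2, the muscle isoform of subunit 6a, held 0 to 4 counts per library and was not tested, and neither were Cox7b2, with 0 counts in all libraries, and Cox8c, with 1 count in the DOX_OIL group. For Cox7b2 a count of 0 still allows up to 3 counts in a library, from counting error alone. In 4 members the symbol fits the rule but the product is no subunit: Cox4nb, a component of the membrane protein complex of the endoplasmic reticulum, Atp5s and Atp5sl, which are now known under other names, and Atp5l-ps1, a pseudogene. Ndufa4 was counted in complex I by its symbol although it is now placed in complex IV, and Cox7a2l is a factor that joins complexes III and IV into supercomplexes. Exons of 27 nuclear members overlap another gene on the other strand and those of 5 overlap another gene on the same strand. Among the mt- members, mt-Atp8 overlaps mt-Atp6, mt-Atp6 overlaps mt-Co3 and mt-Nd4l overlaps mt-Nd4, while mt-Nd6 overlaps mt-Nd5 on the other strand. The counts of all these members may hold reads of the neighbour.

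Libraries held 18042357 to 39783785 counts, and the mt- genes took 2.634% to 4.788% of them. Of the hormones, progesterone went with the higher mt- share: 4.294% to 4.788% in DOX_P4 and 3.902% to 4.391% in PBS_P4, against 3.404% to 3.731% in DOX_OIL and 3.382% to 3.624% in PBS_OIL. With estradiol the share was 2.634% to 3.472% in DOX_E2 and 2.697% to 2.947% in PBS_E2. The PBS_E2 libraries lay below the PBS_OIL libraries, while the DOX_E2 and DOX_OIL libraries overlapped. Per kilobase of exon the median mt- gene stood at 2366 CPM in DOX_E2 and 1796 CPM in PBS_E2, where CPM is the count scaled to a common TMM library size. The median nuclear member stood at 74.2 CPM per kilobase in DOX_E2 and 71.3 in PBS_E2. A whole-tissue library cannot tell fewer cells of a type from less RNA per cell.

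The ratio of mt- to nuclear member counts separated the estradiol groups from the rest. It was 4.32, 4.27 and 3.60 in the DOX_E2 libraries, against 5.77, 5.84 and 5.28 in the DOX_OIL libraries. In the vehicle arm it was 4.07, 4.04 and 4.001 with estradiol, against 4.88, 5.31 and 5.25 with oil. No estradiol library reached the lowest oil library in either arm. The nuclear members took 0.7318% to 0.8044% of the counts in DOX_E2, above the 0.6307% to 0.6453% in DOX_OIL. In the vehicle arm their shares overlapped, at 0.6737% to 0.7244% in PBS_E2 and 0.6366% to 0.7428% in PBS_OIL. With progesterone the ratio was 5.63, 5.78 and 5.41 in DOX_P4 and 4.77, 4.90 and 4.87 in PBS_P4, so every DOX_P4 library lay above every PBS_P4 library. It is a description of sums and was not tested.

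**Figure D1:**
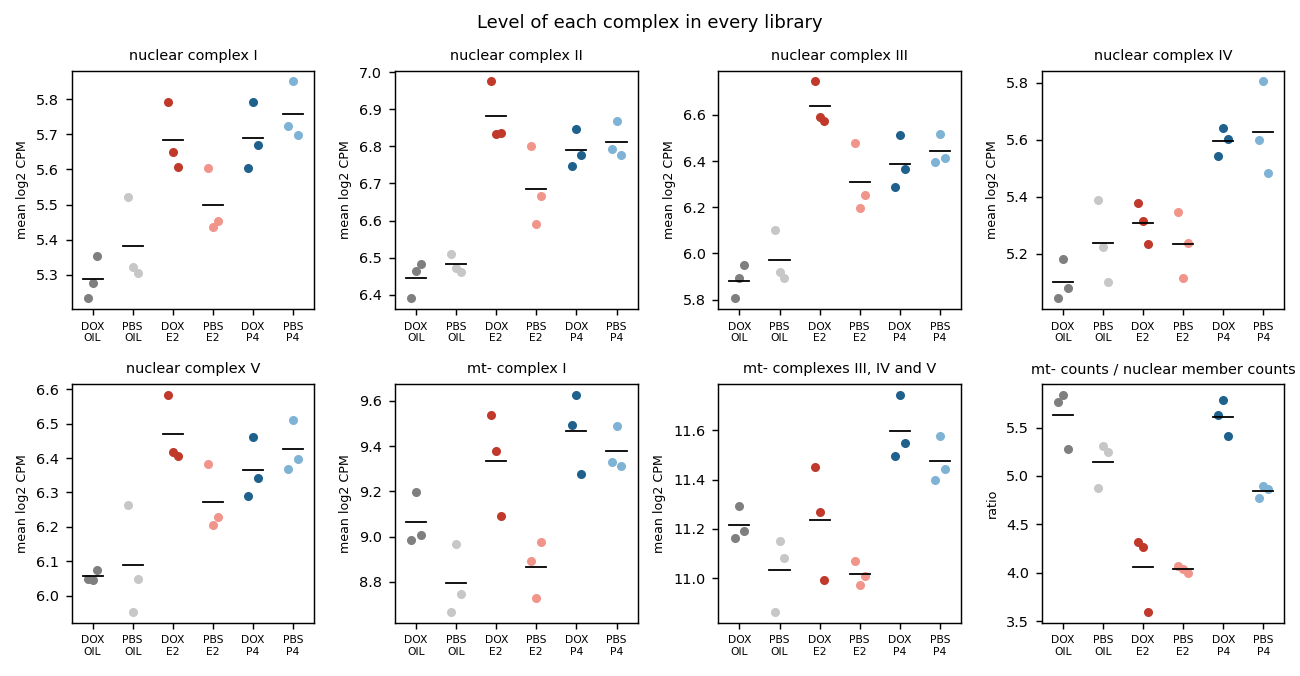
Mean log2 CPM of the tested members of each complex in every library, and in the last panel the ratio of mt- counts to nuclear member counts; points are libraries, lines are group means, and the y axes do not start at 0. The estradiol libraries hold the lowest ratios, 3.60 to 4.32, and the nuclear complex III mean is highest in the DOX_E2 libraries.

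More nuclear members were higher than lower with estradiol in each arm. In DOX_E2 against DOX_OIL, 55 of 83 nuclear members were higher and 9 lower, with a median log2 fold change of 0.53. Over all 15494 genes tested, 72.6% were called, 35.1% higher and 37.5% lower, with a median of -0.08. In PBS_E2 against PBS_OIL, 35 were higher and 13 lower, with a median of 0.17, beside 61.4% of all genes called, 29.6% higher and 31.9% lower, and a median of -0.09. Of the called members, 35 were higher and 8 were lower in both arms, which share no library. The 35 are all of the vehicle-arm risers and 63.6% of the 55 DOX-arm risers. Complex III led: 6 of its 8 genes rose in the DOX arm with none lower, a median of 0.73, and 5 rose in the vehicle arm, a median of 0.38. Complex I had 26 higher and 3 lower of 37 in the DOX arm and 15 higher and 5 lower in the vehicle arm. Complex V had 12 higher and 2 lower of 18 in the DOX arm and 8 and 3 in the vehicle arm. Its 2 lower members in the DOX arm were Atp5s and Atp5sl, which are no subunits and were also lower in the vehicle arm. Complex IV was split, with 8 higher and 3 lower of 16 in the DOX arm and 5 each way in the vehicle arm. Its risers in both arms include Cox4nb, which is no subunit. Among the 79 tested subunits and isoforms alone, 54 were higher and 7 lower in the DOX arm. In the vehicle arm 34 were higher and 11 lower. Of 9 epithelial markers 5 were higher in the DOX arm, with a summed level of 893 to 1266 CPM in DOX_E2, against 668 to 886 CPM in DOX_OIL, while 1 was higher and 2 were lower in the vehicle arm, at 612 to 898 CPM in PBS_E2, against 584 to 953 CPM in PBS_OIL. Of 6 stroma markers, 1 was higher and 5 lower in the DOX arm and 1 higher and 3 lower in the vehicle arm, and of 6 ciliated and oviduct markers 4 and 3 were lower. The 10 smooth muscle markers had 2 higher and 3 lower in the DOX arm and 3 higher in the vehicle arm. The part of these markers in the members' differences was not tested.

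Cox5a, a subunit of complex IV at chr9:57521274-57532426 (GRCm38), was the largest riser. It stood at 133, 117 and 121 CPM in DOX_E2 and 99.6, 59.4 and 76.0 CPM in PBS_E2, against 29.8, 29.5 and 25.6 CPM in DOX_OIL and 27.1, 30.0 and 23.5 CPM in PBS_OIL. The estradiol libraries all lay above the oil libraries, and all DOX_E2 libraries above all PBS_E2 libraries. Its log2 fold change was 2.13 ± 0.16 in the DOX arm (SE, n = 3 per group; adjusted p = 8.61e-09, edgeR quasi-likelihood test) and 1.55 ± 0.16 in the vehicle arm (5.55e-07). Uqcrq, a small subunit of complex III, rose by 2.02 ± 0.16 in the DOX arm and 1.20 ± 0.15 in the vehicle arm. Its libraries read 95.9, 93.7 and 93.0 CPM in DOX_E2 and 79.5, 48.8 and 58.6 CPM in PBS_E2, against 21.5, 24.5 and 24.0 CPM in DOX_OIL and 28.9, 29.4 and 23.0 CPM in PBS_OIL. The DOX_E2 libraries were the highest and spanned a narrow range. Atp5b, the catalytic beta subunit of the ATP synthase, was higher by 1.36 ± 0.11 and 0.88 ± 0.11, and Ndufa11, a membrane-arm subunit of complex I, by 1.5 ± 0.11 and 0.98 ± 0.11 in the DOX and vehicle arms. In complex II, Sdhb, which carries the iron-sulfur clusters, rose by 0.92 ± 0.10 in the DOX arm and 0.44 ± 0.10 in the vehicle arm. Sdhc, a membrane anchor, rose by 0.45 ± 0.07 and 0.25 ± 0.07. Sdha, the flavoprotein of the complex, was the exception, at -0.15 ± 0.06 in the DOX arm, a call that ended without any 1 of the 6 libraries (-0.16 to -0.13), with DESeq2 (-0.12), with its size factors (-0.12), in the fit of only the groups compared (-0.14) and with the replicate block (-0.15), and at 0.00 ± 0.06 in the vehicle arm.

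**Figure D2:**
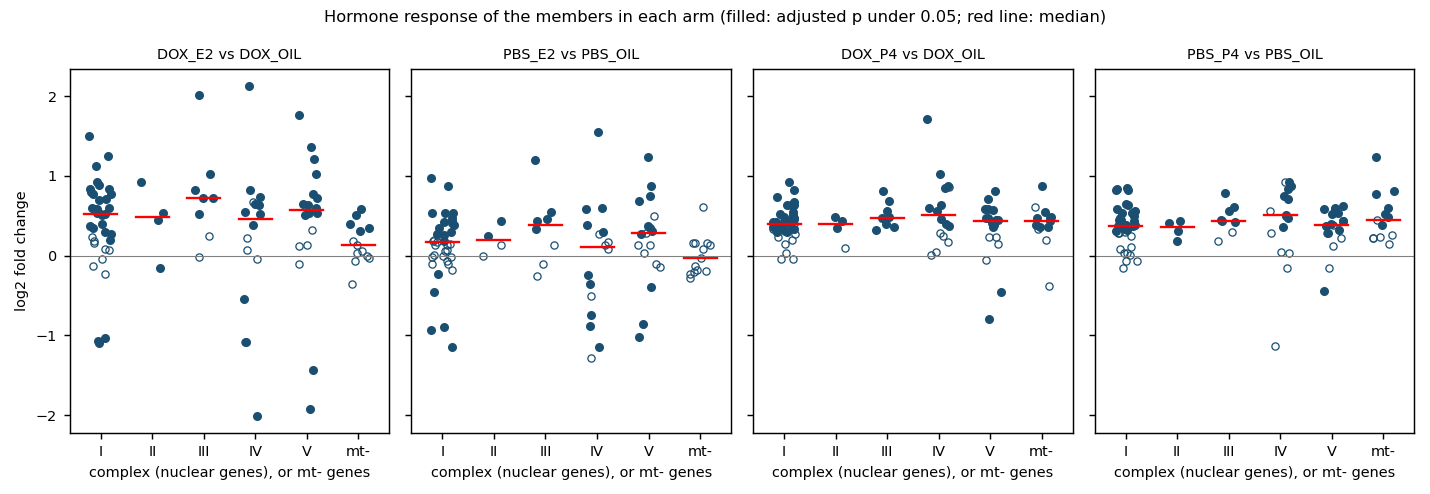
Log2 fold change of each tested member for estradiol or progesterone against oil in each arm, with nuclear members by complex and the mt- genes at the right; filled points have an adjusted p under 0.05 and red lines are medians. Estradiol spreads the members from -2.01 to 2.13 in the DOX arm, while with progesterone nearly all lie above 0.

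Against this direction, a few subunits fell with estradiol in both arms. Ndufa6, an accessory subunit of complex I at chr15:82350140-82354322, stood at 47.1, 42.3 and 45.5 CPM in DOX_E2 and 55.1, 65.0 and 56.1 CPM in PBS_E2, against 96.1, 93.4 and 96.8 CPM in DOX_OIL and 135, 94.2 and 106 CPM in PBS_OIL. It fell by 1.09 in the DOX arm (SE 0.11, adjusted p = 3.41e-07) and by 0.93 in the vehicle arm (SE 0.11, 3.6e-06). Ndufv3, an accessory subunit of the NADH-oxidizing arm, fell by 1.03 (SE 0.12) and 0.89 (SE 0.12). Cox7a2l, the supercomplex factor, fell by 1.08 (SE 0.12) and 0.88 (SE 0.11), and its libraries read 100, 98.3 and 88.4 CPM in DOX_E2 and 118, 144 and 126 CPM in PBS_E2, against 212, 189 and 206 CPM in DOX_OIL and 284, 198 and 235 CPM in PBS_OIL. All estradiol libraries lay below all oil libraries for these genes. Atp5s and Atp5sl, which are no subunits, also fell, by 1.92 (SE 0.15) and 1.43 (SE 0.17) in the DOX arm and by 0.86 (SE 0.15) and 1.02 (SE 0.16) in the vehicle arm. Ndufb11 and Ndufa13 of complex I were called lower in the vehicle arm only. Ndufb11 read 78.2, 79.4 and 75.1 CPM in PBS_E2, against 128, 89.6 and 102 CPM in PBS_OIL. Its call held whichever library was left out. The Ndufa13 call ended in 4 of 6 such fits (-0.28 to -0.14 over the 6).

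**Figure D3:**
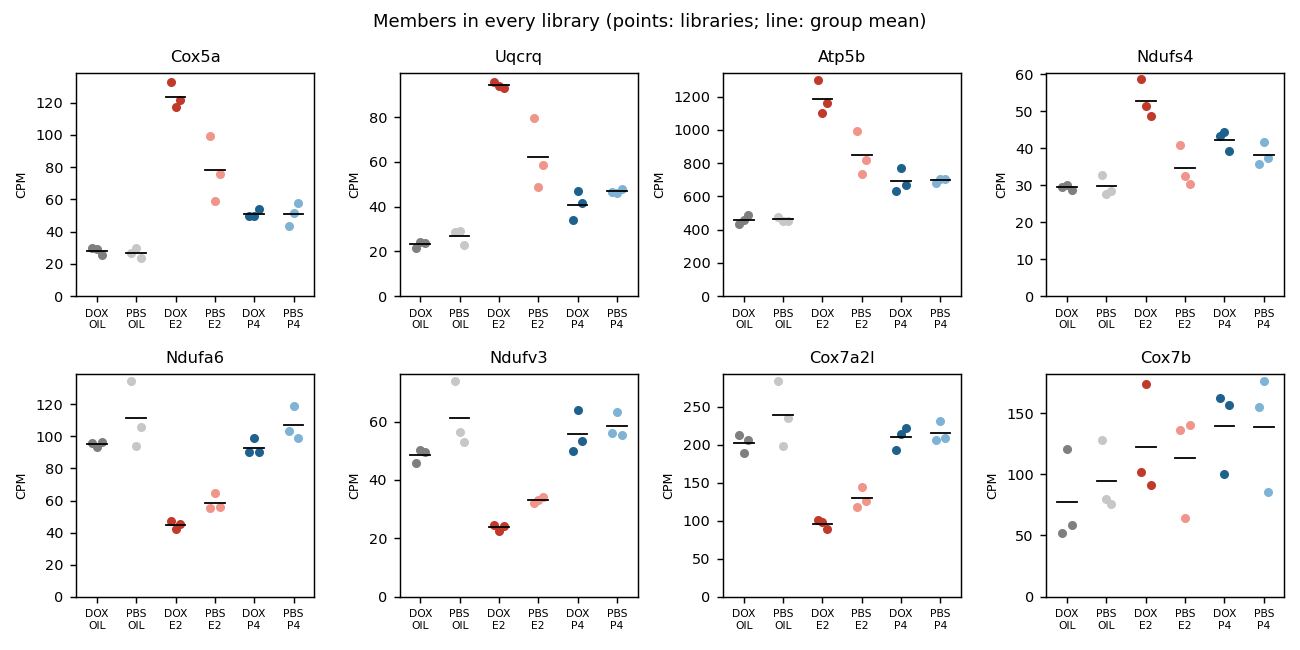
CPM of 8 nuclear members in every library, with group means as lines and y axes from 0. Cox5a, Uqcrq and Atp5b are highest in DOX_E2, Ndufa6, Ndufv3 and Cox7a2l are lowest there, and Cox7b varies within every group.

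Isoforms of the same subunit differed in their estradiol values and calls. The proton-turning c ring of the ATP synthase is built from 1 mature protein encoded by 3 genes, Atp5g1, Atp5g2 and Atp5g3. With estradiol Atp5g1 rose by 1.77 ± 0.17 in the DOX arm and 1.24 ± 0.17 in the vehicle arm, and Atp5g3 by 1.21 ± 0.09 and 0.75 ± 0.09. Atp5g2 was at -0.10 ± 0.12 in the DOX arm and fell by 0.39 in the vehicle arm, where the call ended without PBS_E2 replicate 1 (-0.32) or PBS_OIL replicate 1 (-0.21), in the fit of only the groups compared (-0.34) and with limma voom (-0.21). Its libraries read 115, 98.8 and 105 CPM in DOX_E2 and 79.4, 90.3 and 93.5 CPM in PBS_E2, against 109, 113 and 120 CPM in DOX_OIL and 141, 97.9 and 105 CPM in PBS_OIL. The DOX groups overlap, and the vehicle groups are parted by a narrow gap. The difference between the paralogs was not tested.

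In complex IV, Cox4i2, known as an isoform favoured at low oxygen in mammalian lung, and Cox6b2, known as a testis isoform, were lower with estradiol. Cox6b2 fell by 2.01 (SE 0.23) in the DOX arm and by 1.15 (SE 0.22) in the vehicle arm, while the general form Cox6b1 rose by 0.55 ± 0.11 in the DOX arm and was at 0.17 ± 0.11 in the vehicle arm. Cox4i2 stood at 2.43, 2.32 and 2.55 CPM in DOX_E2 and 2.42, 3.04 and 2.99 CPM in PBS_E2, against 3.52, 3.44 and 3.69 CPM in DOX_OIL and 5.66, 4.60 and 3.78 CPM in PBS_OIL. It fell by 0.74 (SE 0.21) in the vehicle arm and by 0.54 (SE 0.21) in the DOX arm, where the call ended without any 1 of the 6 libraries (-0.58 to -0.51), with DESeq2 (-0.52) and with limma voom (-0.55). With progesterone Cox4i2 moved the other way, at 6.52, 5.49 and 9.58 CPM in DOX_P4 and 8.10, 9.32 and 7.76 CPM in PBS_P4, which is 1.02 ± 0.20 and 0.84 ± 0.20 above oil. The general form Cox4i1 was at 0.07 ± 0.10 with estradiol and 0.17 ± 0.10 with progesterone in the DOX arm. In the vehicle arm Cox4i1 was also called lower with estradiol, at 239, 223 and 224 CPM, against 314, 242 and 253 CPM in PBS_OIL. That call ended in 4 of 6 fits that left out a library (-0.31 to -0.12 over the 6). It also ended with DESeq2 (-0.21), its size factors (-0.21), no filter (-0.25), the replicate block (-0.24) and only the groups compared (-0.19). Ndufa4l2, a paralog of Ndufa4 known to be induced in hypoxia, fell with estradiol by 1.07 (SE 0.23) in the DOX arm and by 1.14 (SE 0.22) in the vehicle arm, while Ndufa4 rose by 0.59 ± 0.12 in the DOX arm and was called in the vehicle arm at 0.35 ± 0.12, a call lost without PBS_E2 replicate 1 (0.26) or PBS_OIL replicates 2 (0.33) or 3 (0.33), and with limma voom (0.26).

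**Figure D4:**
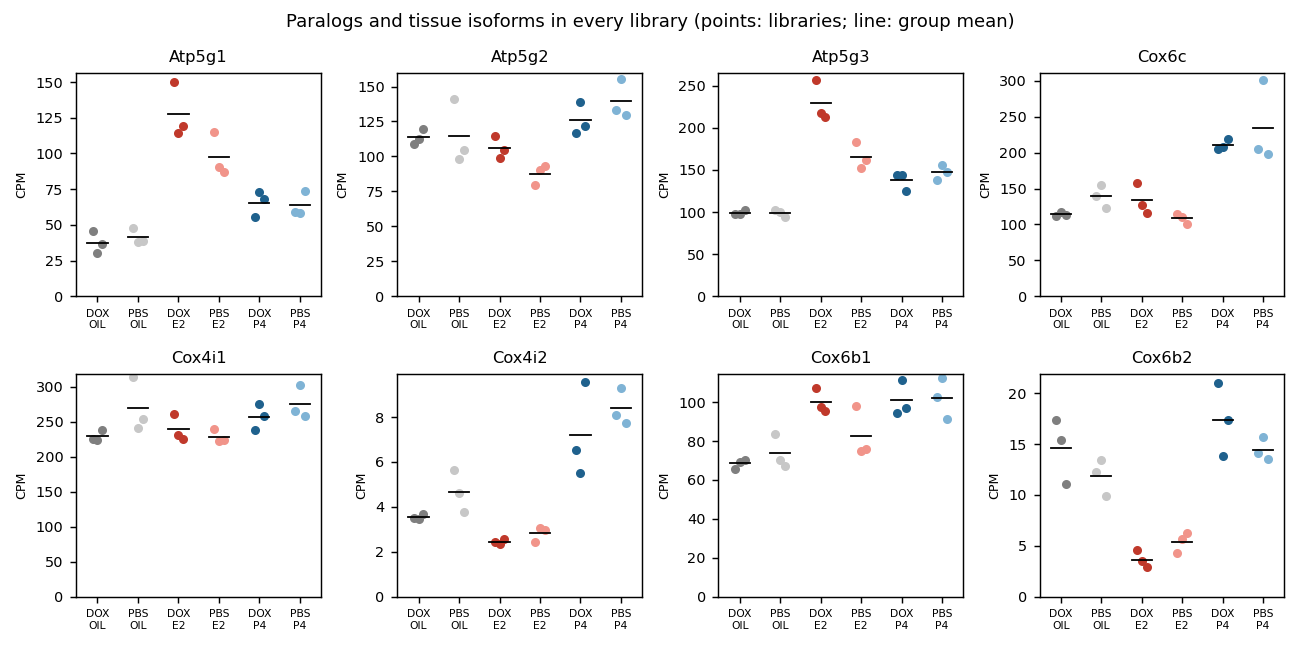
CPM of the 3 c-ring genes, of Cox6c and of 2 pairs of complex IV isoforms in every library, with group means as lines and y axes from 0. Atp5g1 and Atp5g3 are high with estradiol while Atp5g2 is not, and Cox4i2 and Cox6b2 are low with estradiol while Cox4i2 is high with progesterone.

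Few mt- genes were called with estradiol. In the vehicle arm 0 of 13 passed the edgeR test, with 1 at an unadjusted p under 0.05, 0 called by DESeq2 and 4 by limma voom, and the median was -0.03 (0 with DESeq2 size factors). Without PBS_OIL replicate 2 the count was 2 and without PBS_E2 replicate 1 it was 1. In the DOX arm 5 rose and 0 fell, all of complex I, with a median of 0.13. Of these, mt-Nd1 stood at 4290, 3827 and 3341 CPM in DOX_E2, against 2573, 2672 and 2431 CPM in DOX_OIL, and rose by 0.58 ± 0.12. The DOX_E2 libraries all lay above the oil libraries. mt-Nd5 rose by 0.51 ± 0.13. The other 3 calls were lost when single libraries were left out: mt-Nd4l (0.31 ± 0.10) ended without DOX_E2 replicate 1 (0.21), mt-Nd2 (0.40 ± 0.14) without DOX_E2 replicates 1 (0.32) or 2 (0.37) or DOX_OIL replicate 1 (0.34), and mt-Nd3 (0.35 ± 0.15) without DOX_E2 replicates 1 (0.21) or 2 (0.30) or DOX_OIL replicates 1 (0.29) or 3 (0.35). The mt-Nd3 call also ended with no filter (0.33), with the stricter filter (0.34) and in the fit of only the groups compared (0.36). The count of mt- genes was 2 without DOX_E2 replicate 1, and 3 without DOX_E2 replicate 2 or DOX_OIL replicate 1. The mt- genes of complexes III, IV and V lay at -0.07 to 0.18, with 0 passing.

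Under estradiol, doxorubicin went with higher levels of a minority of nuclear members and of 6 of the 7 mt- genes of complex I. In DOX_E2 against PBS_E2, 31 of 83 nuclear members were higher and 5 lower, with a median of 0.23, beside 41% of all genes called, 20.4% higher and 20.6% lower, and a median of 0.02. Of the 13 mt- genes, 6 were higher and 0 lower. Nuclear complex III had 5 of 8 higher with 0 lower and a median of 0.35, and complex II had 3 of 4 higher. Complex I had 14 higher and 2 lower of 37, complex V 7 higher and 1 lower of 18, and complex IV 2 higher and 2 lower of 16. The 1 lower member of complex V was Atp5s, which is no subunit. Without DOX_E2 replicate 1 the nuclear count of 36 became 22, and in a fit of only the DOX_E2 and PBS_E2 libraries it was also 22. With limma voom it was 58.

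Ndufs4, an accessory subunit of the NADH-oxidizing arm of complex I, read 58.7, 51.3 and 48.6 CPM in DOX_E2, against 41.0, 32.5 and 30.2 CPM in PBS_E2, with no overlap, and rose by 0.61 ± 0.11 (adjusted p = 0.000619). Ndufv2, a core iron-sulfur subunit, rose by 0.48 ± 0.10. In complex III, Uqcrfs1, the Rieske iron-sulfur protein, stood at 111, 92.5 and 101 CPM in DOX_E2, against 82.1, 66.9 and 72.3 CPM in PBS_E2, and rose by 0.45 ± 0.09. Uqcrb rose by 0.49 ± 0.11 and the core protein Uqcrc1 by 0.34 ± 0.07. Cox5a rose by 0.66 ± 0.15 and Cox7c, a small membrane subunit of complex IV, by 0.49 ± 0.11. In complex V, Atp5f1, a subunit of the peripheral stalk, rose by 0.50 ± 0.11, Atp5b by 0.48 ± 0.11 and Atp5g3 by 0.46 ± 0.09.

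The members lower under doxorubicin with estradiol were Cox7a2l, which fell by 0.44 (SE 0.11), Ndufv3, which fell by 0.48 (SE 0.12), Ndufa6, which fell by 0.38 (SE 0.11), Atp5s, which fell by 0.80 (SE 0.15), and Cox8b, a muscle isoform that held 5 to 17 counts in DOX_E2 and 15 to 61 in PBS_E2. The first 4 are members that estradiol lowered in the vehicle arm as well, a comparison that shares the PBS_E2 libraries. The Ndufa6 call ended without DOX_E2 replicate 2 (-0.34) or PBS_E2 replicate 2 (-0.31). The Cox8b value of -1.47 ± 0.50 lost its call without DOX_E2 replicates 1 (-1.26) or 2 (-1.24) or PBS_E2 replicate 1 (-1.03), and in the fit of only the groups compared (-1.51). Complex II values were smaller, with Sdhb at 0.33 ± 0.10, Sdhd at 0.29 ± 0.08 and Sdhc at 0.25 ± 0.07. Each of the 3 lost its call in the fit of only the groups compared (0.29, 0.25 and 0.21 for Sdhb, Sdhd and Sdhc) and without DOX_E2 replicate 1 (0.25, 0.21 and 0.16). Each also lost it without a PBS_E2 library, replicate 2 for Sdhb (0.24) and Sdhc (0.22) and replicate 3 for Sdhd (0.24).

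The 6 mt- genes raised by doxorubicin under estradiol all encode complex I subunits. mt-Nd3 stood at 566, 514 and 363 CPM in DOX_E2, against 287, 289 and 330 CPM in PBS_E2, and rose by 0.67 ± 0.15. mt-Nd1 rose by 0.51 ± 0.12, with 4290, 3827 and 3341 CPM in DOX_E2, against 2955, 2466 and 2604 CPM in PBS_E2. mt-Nd5 rose by 0.53 ± 0.13. For these genes all DOX_E2 libraries lay above all PBS_E2 libraries, with DOX_E2 replicate 3 the lowest of its group. The calls of mt-Nd4 (0.40 ± 0.11), mt-Nd2 (0.47 ± 0.14) and mt-Nd4l (0.28 ± 0.10) ended without DOX_E2 replicate 1 (0.27, 0.38 and 0.17). That of mt-Nd2 also ended without PBS_E2 replicate 2 (0.43), that of mt-Nd4l without PBS_E2 replicate 2 (0.20) or DOX_E2 replicate 2 (0.28), and those of mt-Nd4 and mt-Nd4l in the fit of only the groups compared (0.36 and 0.24). mt-Nd6, the complex I gene read from the other strand, lay at 15.4, 13 and 10.1 CPM in DOX_E2, against 8.10, 7.48 and 11.7 CPM in PBS_E2, and did not pass (0.50 ± 0.29). The 6 mt- genes of complexes III, IV and V lay at 0.14 to 0.27 without passing. The count of mt- genes called was 3 without DOX_E2 replicate 1, 10 without DOX_E2 replicate 3, 11 with limma voom and 4 in the fit of only the groups compared.

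**Figure D5:**
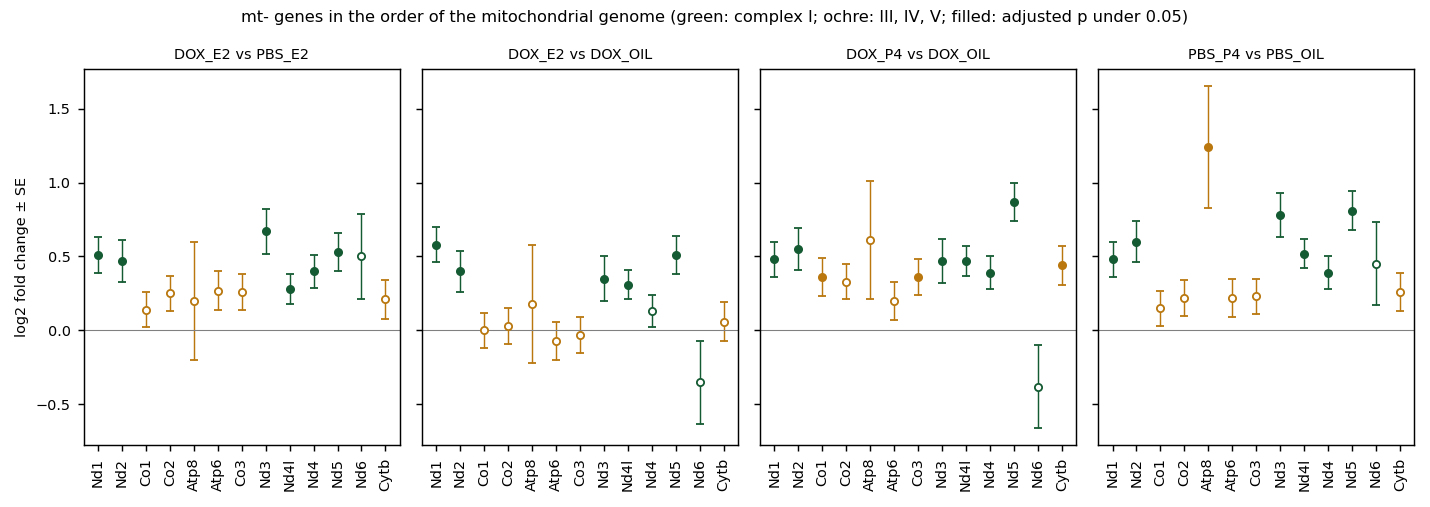
Log2 fold change ± SE of the 13 mt- genes in the order of the mitochondrial genome for 4 comparisons, with complex I genes in green and genes of complexes III, IV and V in ochre; filled points have an adjusted p under 0.05. In DOX_E2 against PBS_E2 the filled points are all complex I genes, at 0.28 to 0.67.

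Other cell type markers moved with the same contrast. All 12 adipocyte markers were lower in DOX_E2 than in PBS_E2, with a summed level of 95.3 to 348 CPM in DOX_E2, against 436 to 6223 CPM in PBS_E2, and PBS_E2 replicate 1 was the highest. No adipocyte marker was at 0 in either group. Among 9 epithelial markers, the keratin Krt8 (0.84 ± 0.22) and the adhesion protein Cdh1 (0.67 ± 0.25) were higher, and the summed level was 893 to 1266 CPM in DOX_E2 and 612 to 898 CPM in PBS_E2. The 10 smooth muscle markers had 2 lower, at a sum of 9577 to 11500 CPM in DOX_E2 and 11860 to 12380 CPM in PBS_E2. The 6 stroma markers had 1 higher and 1 lower, at a sum of 3256 to 4219 CPM in DOX_E2 and 4420 to 6064 CPM in PBS_E2. Of the skeletal muscle list 3 of 7 tested genes were lower, and of 6 ciliated and oviduct markers 2 were lower, with 0 higher in both lists. No macrophage marker was called. Of the brown adipocyte list, Dio2, a thyroid hormone deiodinase, was higher (2.19 ± 0.46) and Cidea, a lipid droplet protein, lower (-2.72 ± 0.44). The part of these markers in the members' differences was not tested. Without PBS_E2 replicate 1, 46 nuclear and 6 mt- members were called. That library was the highest in adipocyte markers and also the deepest, at 39783785 counts. Its mean log2 CPM of nuclear members was the highest of PBS_E2, at 5.865, against 5.67 and 5.716 in replicates 2 and 3. Which of these traits bears on the count was not tested.

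Whether estradiol acted differently with doxorubicin was tested directly, as the difference between the estradiol effects of both arms. For 19 of 83 nuclear members the difference, DOX arm minus vehicle arm, was positive and for 1, Atp5s, it was negative, with a median difference of 0.30 on the log2 scale. Of the 19, 18 were called higher with estradiol in the DOX arm and Cox6c was not called there. Cox6c was called lower with estradiol in the vehicle arm, so its positive difference is no larger rise. That vehicle-arm call ended in 5 of 6 fits that left out a library (-0.44 to -0.27 over the 6). Over all genes 22.9% were called, 10.1% had a positive and 12.8% a negative difference, with a median of 0.01. Uqcrq had a difference of 0.81 ± 0.21 (adjusted p = 0.0146), Ndufs4 of 0.62 ± 0.16, Ndufa8 of 0.52 ± 0.12, Ndufs3 of 0.48 ± 0.11 and Atp5h, a subunit of the peripheral stalk, of 0.47 ± 0.12. For Ndufs4 the estradiol response was 0.84 ± 0.11 in the DOX arm and 0.22 ± 0.11 in the vehicle arm, which did not pass. These 5 genes and Atp5s (-1.05 ± 0.21) kept their calls whichever of the 12 libraries was left out. The count of 20 was 8 without PBS_E2 replicate 2 or DOX_E2 replicate 1, 9 without PBS_OIL replicate 1, 10 without PBS_E2 replicate 3, 13 without DOX_OIL replicate 2 and 36 without PBS_E2 replicate 1, and it was 11 in a fit of only these 4 groups and 35 with limma voom. For the mt- genes 0 passed with edgeR, 1 at an unadjusted p under 0.05, 1 with DESeq2 and 1 with limma voom. Cell type markers shifted in the same contrast. All 9 epithelial markers were positive (median 0.53) with 0 called, and all 12 adipocyte markers negative (median -2.53) with 1 called. Smooth muscle had 3 of 10 called lower, stroma 1 of 6, ciliated and oviduct 2 of 6 and skeletal muscle 2 of 7, with 0 higher in these lists. The part of these markers in the members' differences was not tested.

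Described across the 83 nuclear members, the estradiol responses of both arms, which share no library, had a Pearson r of 0.93 and a Spearman rho of 0.93, and the DOX-arm value was the larger in 74 of 83. Over all 15494 genes r was 0.83 and the DOX-arm value was larger in 7895.

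Progesterone raised most nuclear members in each arm, and most mt- genes of complex I. In DOX_P4 against DOX_OIL, 59 of 83 nuclear members were higher and 2 lower, with a median of 0.42, beside 29.8% of all genes called, 14.7% higher and 15.1% lower, and a median of -0.02. In PBS_P4 against PBS_OIL, 56 were higher and 1 lower, with a median of 0.40, beside 31.8% of all genes called, 16.2% higher and 15.6% lower, and a median of -0.01. Higher in both arms, which share no library, were 52 members, 88.1% of the 59 and 92.9% of the 56. The lower calls were Atp5s in both arms and Atp5sl in the DOX arm, which are no subunits. The Atp5sl call (-0.45 ± 0.16) ended without DOX_OIL replicates 1 (-0.35) or 2 (-0.42) or DOX_P4 replicates 1 (-0.37), 2 (-0.50) or 3 (-0.47), with DESeq2 (-0.42), with its size factors (-0.42), with no filter (-0.43), without the mt- rows (-0.43) and with the replicate block (-0.44). Every complex took part: in DOX_P4 against DOX_OIL 26 of 37 genes of complex I, 3 of 4 of complex II, 8 of 8 of complex III, 10 of 16 of complex IV and 12 of 18 of complex V rose, and in PBS_P4 against PBS_OIL 25, 4, 6, 9 and 12 rose.

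Ndufc2, a membrane-arm subunit of complex I, had the smallest p. It stood at 60.4, 61.8 and 60.0 CPM in DOX_P4 and 62.0, 64.4 and 65.1 CPM in PBS_P4, against 38.4, 35.1 and 41.1 CPM in DOX_OIL and 34.8, 34.4 and 38.1 CPM in PBS_OIL. All progesterone libraries lay above all oil libraries. It rose by 0.67 ± 0.09 in the DOX arm (adjusted p = 9.25e-05) and 0.84 ± 0.09 in the vehicle arm (1.62e-05), while its estradiol value in the vehicle arm was -0.02 ± 0.09. In the DOX arm Ndufc2 was also called higher with estradiol. That call ended with limma voom (0.19), without the mt- rows (0.17), with no filter (0.17) and with the stricter filter (0.19). It also ended with the replicate block (0.20) and in the fit of only the groups compared (0.21). Ndufb6 rose with progesterone by 0.74 ± 0.10 and 0.82 ± 0.10, and Ndufa4 by 0.82 ± 0.12 and 0.83 ± 0.12, in the DOX and vehicle arms. Cox6c, a small subunit of complex IV, stood at 205, 207 and 219 CPM in DOX_P4 and 205, 301 and 198 CPM in PBS_P4, against 112, 117 and 113 CPM in DOX_OIL and 139, 155 and 123 CPM in PBS_OIL. It rose by 0.88 ± 0.14 and 0.75 ± 0.14. Cox5a rose by 0.85 ± 0.15 and 0.92 ± 0.15, Uqcrc2, a core protein of complex III, by 0.48 ± 0.09 and 0.56 ± 0.09, Atp5b by 0.58 ± 0.11 and 0.59 ± 0.11, and Sdhb by 0.49 ± 0.10 and 0.41 ± 0.10. Of the members lowered by estradiol in both arms, Ndufa6, Ndufv3, Cox7a2l, Cox6b2 and Ndufa4l2 did not pass with progesterone in either arm. Ndufa6 was at -0.04 ± 0.11 in the DOX arm and -0.06 ± 0.11 in the vehicle arm, and Ndufv3 at 0.20 ± 0.12 and -0.07 ± 0.12. Cox7a1, a muscle isoform at 18 to 23 counts in DOX_P4 and 3 to 8 in DOX_OIL, was called at 1.72 ± 0.48, a call lost without DOX_OIL replicates 1 (1.52) or 3 (1.54). Atp5s fell by 0.79 (SE 0.14) in the DOX arm and by 0.44 (SE 0.14) in the vehicle arm, where the call ended without PBS_OIL replicates 1 (-0.36) or 3 (-0.45) or PBS_P4 replicates 2 (-0.46) or 3 (-0.40), and in the fit of only the groups compared (-0.45).

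Unlike with estradiol, mt- genes rose in both progesterone arms: 9 of 13 in the DOX arm with a median of 0.44 and 7 of 13 in the vehicle arm with a median of 0.45, 0 lower in either. mt-Nd5 stood at 2486, 2977 and 2530 CPM in DOX_P4 and 2226, 2456 and 2081 CPM in PBS_P4, against 1382, 1683 and 1300 CPM in DOX_OIL and 1193, 1333 and 1335 CPM in PBS_OIL. It rose by 0.87 ± 0.13 and 0.81 ± 0.13 with no overlap between hormone and oil. mt-Nd1, mt-Nd2 and mt-Nd4l also rose, by 0.47 to 0.60 over both arms, and kept their calls in every fit that left out a library, where they lay at 0.37 to 0.73. mt-Nd4 was at 0.39 ± 0.11 in both arms and lost its call without DOX_P4 replicate 2 (0.34) in the DOX arm and without PBS_P4 replicate 2 (0.34) in the vehicle arm, where it was also lost in the fit of only the groups compared (0.39). In the DOX arm mt-Nd3 (0.47 ± 0.15) lost its call without DOX_OIL replicates 1 (0.41) or 3 (0.47) or DOX_P4 replicates 1 (0.44) or 2 (0.45), and in the vehicle arm it was at 0.78 ± 0.15.

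Beyond complex I, mt-Cytb of complex III (0.44 ± 0.13) and mt-Co1 (0.36 ± 0.13) and mt-Co3 (0.36 ± 0.12) of complex IV were called in the DOX arm. mt-Cytb lost its call without DOX_P4 replicate 2 (0.37) or DOX_OIL replicates 1 (0.42) or 3 (0.42), and mt-Co1 and mt-Co3 lost theirs without any 1 of 5 of the 6 libraries, DOX_P4 replicate 1 excepted (0.29 to 0.38 and 0.30 to 0.40). In the vehicle arm mt-Atp8, a subunit of complex V, was called at 1.24 ± 0.41, with 149, 159 and 162 CPM in PBS_P4, against 18.1, 112 and 68.8 CPM in PBS_OIL. The low value of PBS_OIL replicate 1 moved it, to 0.79 without that library, and the call ended without PBS_OIL replicate 3 (1.26) or PBS_P4 replicates 1 (1.27), 2 (1.23) or 3 (1.21), and in the fit of only the groups compared (1.23). The count of 9 in the DOX arm was 4 without DOX_P4 replicate 2 and 5 without DOX_OIL replicates 1 or 3.

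Smooth muscle markers rose with the same contrasts. Of 10 markers, 7 were higher and 0 lower in each arm, with a summed level of 17500 to 30840 CPM in DOX_P4 and 16120 to 21210 CPM in PBS_P4, against 7643 to 17010 CPM in DOX_OIL and 8429 to 10170 CPM in PBS_OIL. The contractile protein genes Actg2 (1.92 ± 0.41 and 2.20 ± 0.41 in the DOX and vehicle arms) and Acta2 (0.80 ± 0.20 and 1.11 ± 0.20) were among them. Endometrial stroma markers had 4 of 6 higher in the DOX arm and 3 of 6 in the vehicle arm. Of the skeletal muscle list 3 of 7 tested genes were higher in each arm, at a summed level of 194 to 220 CPM in DOX_P4 and 202 to 248 CPM in PBS_P4, against 29.1 to 43.8 CPM in DOX_OIL and 23.6 to 30.7 CPM in PBS_OIL, while the defining fast myosins Myh1, Myh2 and Myh4 held 0 to 4 counts in a DOX_P4 library and 0 to 1 in a PBS_P4 library. Adipocyte markers had 4 of 12 lower in the vehicle arm and 0 called in the DOX arm. Of 9 epithelial markers, 3 were lower in the DOX arm and 2 in the vehicle arm, with 0 higher. The brown adipocyte list had 3 of 4 tested genes lower in each arm. Of 6 ciliated and oviduct markers, 1 was lower in the DOX arm, and 2 were higher and 1 lower in the vehicle arm. Of 7 macrophage markers, 1 was lower in the vehicle arm and 0 were called in the DOX arm. The part of these markers in the members' rise was not tested.

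Without hormone, and with progesterone, doxorubicin gave 0 called members by edgeR, DESeq2 and limma voom. In DOX_OIL against PBS_OIL the nuclear members had a median of -0.09, with 63 of 83 negative, and 10 at an unadjusted p under 0.05. The mt- genes had a median of 0.17, with 12 of 13 positive and 3 at an unadjusted p under 0.05, and 11 positive with DESeq2 size factors. Over all genes 0.0129% were called. In DOX_P4 against PBS_P4 the nuclear median was -0.06, with 63 of 83 negative and 2 at an unadjusted p under 0.05, and the mt- median was 0.13, with 12 of 13 positive and 1 at an unadjusted p under 0.05. Over all genes 0% were called. The test of whether doxorubicin changed the progesterone response called 0 members of either genome, with 1 nuclear and 0 mt- at an unadjusted p under 0.05 and 0 by DESeq2 and limma voom, beside 0.00645% of all genes. The DOX-arm value of the progesterone response was the larger in 41 of 83 nuclear members.

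Cox7b, a subunit of complex IV on the X chromosome, passed in no comparison. It spread widely inside each group, at 102, 174 and 91.0 CPM in DOX_E2, 136, 64.7 and 140 CPM in PBS_E2, 162, 100 and 157 CPM in DOX_P4, 155, 176 and 85.5 CPM in PBS_P4, 51.7, 121 and 58.4 CPM in DOX_OIL and 128, 80.0 and 75.6 CPM in PBS_OIL. Every group overlapped every other.

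The promoters of members were searched for the binding motifs of factors known to act on respiratory genes. RefSeq windows (GRCm38.p6) of 250 bases before to 50 after the transcription start were found for 69 of 86 nuclear members, 75 windows in all, and compared with 32851 windows of all genes, on both strands. The motif of nuclear respiratory factor NRF1 was in 18 member windows (24%) and in 4.6% of all windows. The ETS motif CCGGAAG, bound by GABP, was in 16 (21.3%) and in 8.86% of all. The YY1 motif AAGATGGCG was in 9 (12%) and 1.4%, the CRE motif TGACGTCA in 4 (5.33%) and 1.79%, and the SP1 motif GGGCGGG in 25 (33.3%) and 25.6%. The estrogen response element was in 0 of 75 member windows and in 0.07% of all. Windows of a gene can overlap, so the same site is counted again for NRF1 in Ndufa5 and for YY1 in Atp5sl, which is no subunit. A match describes letters in the window, not binding.

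Windows of 4 members, picked after their values were seen, show the NRF1 match in genes that rose and in a gene that fell with estradiol. Ndufa11 (chr17:56717512-56717811, plus strand), Uqcrc1 (chr9:108936398-108936697, plus strand) and Cox6a1 (chr5:115348909-115349208, minus strand) rose with estradiol in both arms, and Ndufa6 (chr15:82354242-82354541, minus strand) fell. Cox6a1, the general isoform of subunit 6a, rose by 0.65 ± 0.12 in the DOX arm and by 0.39 ± 0.12 in the vehicle arm, a call lost without PBS_E2 replicate 1 (0.27) or PBS_OIL replicate 3 (0.31). Capitals mark the NRF1 motif, and in Cox6a1 also the ETS motif, on either strand.
Ndufa11: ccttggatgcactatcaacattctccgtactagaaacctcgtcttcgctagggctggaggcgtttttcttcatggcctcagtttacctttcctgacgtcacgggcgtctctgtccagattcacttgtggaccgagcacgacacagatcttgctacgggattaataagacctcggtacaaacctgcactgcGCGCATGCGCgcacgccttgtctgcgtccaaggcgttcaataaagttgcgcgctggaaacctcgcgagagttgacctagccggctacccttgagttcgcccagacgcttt
Uqcrc1: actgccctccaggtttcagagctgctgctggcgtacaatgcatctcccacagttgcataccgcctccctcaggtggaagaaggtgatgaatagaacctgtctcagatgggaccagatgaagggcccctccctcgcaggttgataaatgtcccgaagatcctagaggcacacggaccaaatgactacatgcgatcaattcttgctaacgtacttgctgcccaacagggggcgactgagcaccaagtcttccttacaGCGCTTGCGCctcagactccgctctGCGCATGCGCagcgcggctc
Cox6a1: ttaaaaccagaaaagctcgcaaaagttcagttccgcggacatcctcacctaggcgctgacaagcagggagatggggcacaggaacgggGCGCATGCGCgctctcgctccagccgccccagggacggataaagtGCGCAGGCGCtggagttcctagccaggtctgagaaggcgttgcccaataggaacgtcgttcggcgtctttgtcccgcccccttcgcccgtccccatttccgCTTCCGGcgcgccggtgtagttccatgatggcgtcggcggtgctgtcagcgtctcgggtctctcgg
Ndufa6: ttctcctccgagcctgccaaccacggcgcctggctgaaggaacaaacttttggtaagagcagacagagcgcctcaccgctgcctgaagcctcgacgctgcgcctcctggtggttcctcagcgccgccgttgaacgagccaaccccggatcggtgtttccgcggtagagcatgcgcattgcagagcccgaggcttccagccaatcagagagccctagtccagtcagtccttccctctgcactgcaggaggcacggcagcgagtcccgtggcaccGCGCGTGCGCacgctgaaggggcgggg

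Other mitochondrial genes outside the symbol rule were counted in the same fits. For these lists the shares over all genes were 20.4% higher and 20.6% lower in DOX_E2 against PBS_E2, 35.1% and 37.5% with estradiol in the DOX arm, 29.6% and 31.9% in the vehicle arm, 14.7% and 15.1% with progesterone in the DOX arm, and 16.2% and 15.6% in the vehicle arm. Of 77 mitochondrial ribosomal proteins, which translate the mt- messages, 58 were higher and 0 lower in DOX_E2 than in PBS_E2. With estradiol 65 rose and 2 fell in the DOX arm and 41 and 3 in the vehicle arm, and for 46 the difference between arms was positive, beside 10.1% of all genes. With progesterone 35 rose in the DOX arm and 32 in the vehicle arm, with 0 lower. Mrpl17 rose with estradiol by 1.76 ± 0.10 in the DOX arm and 1.43 ± 0.10 in the vehicle arm. Of 23 genes of import and protein folding, 21 rose and 1 fell with estradiol in the DOX arm and 20 and 1 in the vehicle arm, and 11 rose in each progesterone arm. Timm23, the channel of the inner membrane translocase, rose with estradiol by 2.58 ± 0.14 and 1.98 ± 0.14. Of 18 TCA cycle genes, 13 rose and 1 fell with estradiol in the DOX arm and 12 and 1 in the vehicle arm, and 13 rose with 0 lower in each progesterone arm. Citrate synthase, Cs, rose with estradiol by 1.27 ± 0.10 and 1.07 ± 0.10 and with progesterone by 0.80 ± 0.10 and 0.77 ± 0.10.

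The mobile carrier cytochrome c, Cycs, rose with estradiol by 3.19 ± 0.17 in the DOX arm and 2.46 ± 0.16 in the vehicle arm, and its partner in complex III, Cyc1, by 1.51 ± 0.09 and 0.96 ± 0.09. The adenine nucleotide carrier Slc25a5 rose by 3.12 ± 0.18 and 2.36 ± 0.18. Of 18 glycolysis genes, 12 rose and 4 fell with estradiol in the DOX arm and 9 and 3 in the vehicle arm. Ldha, lactate dehydrogenase A, rose by 2.21 ± 0.15 and 1.67 ± 0.15. Of 19 assembly factors of complexes I and II, 12 rose and 5 fell with estradiol in the DOX arm and 8 and 5 in the vehicle arm, and of 30 of complexes III to V, 18 rose and 6 fell in the DOX arm and 11 and 10 in the vehicle arm, the last at 36.7% and 33.3%, near the shares over all genes. With progesterone the assembly factors of complexes I and II had 2 higher in the DOX arm and 3 in the vehicle arm, with 0 lower, which is 10.5% and 15.8% and no more than the shares over all genes, and those of complexes III to V had 11 higher and 2 lower in the DOX arm and 9 and 0 in the vehicle arm.

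Among 16 tested regulators of respiration, 6 rose and 3 fell with estradiol in the DOX arm and 6 and 1 in the vehicle arm. The 6 are 37.5% of the list, near the 35.1% of all genes in the DOX arm and above the 29.6% in the vehicle arm. Pprc1, a relative of PGC-1 induced in growing cells, rose with estradiol by 2.97 ± 0.17 in the DOX arm and 3.15 ± 0.17 in the vehicle arm, and Nrf1, whose product binds the NRF1 motif, by 1.02 ± 0.07 and 0.93 ± 0.07. Ppargc1a, the coactivator PGC-1 alpha, fell by 1.67 (SE 0.22) and 1.96 (SE 0.22), and with progesterone by 1.02 (SE 0.21) and 1.05 (SE 0.21). Esrra, the estrogen-related receptor alpha, rose with progesterone by 0.36 ± 0.12 and 0.35 ± 0.12 and was at 0.02 ± 0.12 and -0.02 ± 0.12 with estradiol. Of 20 genes of mitochondrial DNA replication and transcription, 11 rose and 5 fell with estradiol in the DOX arm and 6 and 6 in the vehicle arm, the last at 30% each way and near the shares over all genes. With progesterone 0 rose and 4 fell in each arm. Tfam, the factor that packages mitochondrial DNA and starts its transcription, rose with estradiol by 0.79 ± 0.08 in the DOX arm and 0.36 ± 0.08 in the vehicle arm, with a difference between arms of 0.43 ± 0.12 (adjusted p = 0.0171). With progesterone it was at -0.07 ± 0.08 and -0.18 ± 0.08 and did not pass.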

How the data were processed

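Per the labels' protocols, whole uterus was lysed in Trizol and its total RNA went into TruSeq libraries. The submitters' processing notes name build GRCm38, the aligner HISAT2 2.1.0, StringTie 1.3.4d, R 3.4.4, DESeq2 1.18.1, Trimmomatic 0.36, SAMtools 1.6 and FastQC 0.11.5. How the counts were made, with or without strand, and how reads that map to several places were treated, no label says. The authors deposited 1 raw count per symbol and library, for 22238 symbols and 18 libraries, of which 2904 symbols were at 0 throughout. Members and gene lists were chosen with earlier results of these data known.

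The counts were filtered with filterByExpr (15494 genes kept), scaled by TMM and fitted over all 6 groups with the robust quasi-likelihood model of edgeR 4.0.16 in R 4.3.3, with 12 residual degrees of freedom. P-values were adjusted by Benjamini-Hochberg over all genes within a comparison, with a threshold of 0.05. The SE is the log2 fold change divided by the square root of F. Log2 CPM uses a pseudocount of 0.5. Positions and exonic lengths come from GENCODE M21 on GRCm38. Named with statistics are up to 3 members per complex, comparison and direction with the smallest p, members called against their complex, all mt- genes, and tissue isoforms. Alternatives were DESeq2 size factors, DESeq2 1.42.0, limma voom 3.58.1, no filter, a filter of 1 CPM in 3 libraries, only the groups compared, mt- rows left out, a replicate block, and each library left out in turn. Results for 1 member are not reported here. The edgeR steps were tested on simulated counts.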

Additional observations from a re-analysis of the deposited data

Results flagged for a closer look

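The estradiol response differed between the doxorubicin and vehicle arms, by the direct test of that difference, for 20 of 83 nuclear members. That is 24.1%, near the 22.9% of all genes tested, while by direction 19 were positive (22.9% against 10.1% of all genes) and 1 negative (1.2% against 12.8%). The difference, DOX arm minus vehicle arm on the log2 scale, was 0.81 for Uqcrq, 0.52 for Ndufa8, 0.48 for Ndufs3 and 0.47 for Atp5h, and it was -1.05 for Atp5s. These kept their calls in all 12 fits that left out a library. It was 0.46 for Atp5g3, which lost its call without DOX_E2 replicate 1 (0.35), and 0.36 for Uqcrc1, which lost it without DOX_E2 replicate 1 (0.30) or PBS_E2 replicate 2 (0.32). It was 0.48 for Sdhb, lost without DOX_E2 replicate 1 (0.41), PBS_E2 replicate 2 (0.39) or PBS_OIL replicate 1 (0.42). It was 0.39 for Sdhd, lost without DOX_E2 replicate 1 (0.31), DOX_OIL replicate 3 (0.35), PBS_E2 replicates 2 (0.36) or 3 (0.34) or PBS_OIL replicate 1 (0.32). It was 0.40 for Uqcrfs1, lost without DOX_E2 replicate 1 (0.32), DOX_OIL replicates 1 (0.37) or 3 (0.39), PBS_E2 replicates 2 (0.33) or 3 (0.39) or PBS_OIL replicate 1 (0.34). It was 0.46 for Atp5d, lost without DOX_E2 replicate 1 (0.40), DOX_OIL replicates 1 (0.42) or 2 (0.46), PBS_E2 replicates 2 (0.41) or 3 (0.44) or PBS_OIL replicate 1 (0.29). It was 0.58 for Cox6c, lost without any 1 of 9 libraries, that is all but DOX_E2 replicate 3, PBS_E2 replicate 1 and PBS_OIL replicate 3 (0.44 to 0.62). With estradiol Cox6c was called lower in the vehicle arm and was not called in the DOX arm. In the fit of only the 4 groups compared, Sdhb (0.47), Sdhd (0.38), Uqcrfs1 (0.39) and Atp5d (0.44) also lost their calls. Cox6c lost its call with DESeq2 size factors (0.58), without the mt- rows (0.57) and with no filter (0.56), and Uqcrfs1 with no filter (0.38).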

How the results depend on the processing

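The repeats of named members covered 139 pairs of member and comparison. Each pair was called in the main fit and had a p among the smallest of its complex and direction, so a change of direction was unlikely beforehand. Members named without a call were not among them. None of these pairs changed direction: of 1997 repeats, 1860 stayed on their side of the threshold and 137 no longer passed it, 103 of these among the fits that left out a library. The cause was not tested. For doxorubicin under estradiol the nuclear count of 36 was 58 with limma voom and 22 with only the groups compared, and 22 to 46 with each library left out. The mt- count of 6 was 11 with limma voom and 3 to 10 with each library left out. For estradiol in the vehicle arm the mt- count of 0 was 4 with limma voom, 1 with the stricter filter and 1 with the replicate block, and 0 to 2 with each library left out. In the DOX arm the mt- count of 5 was 2 to 6 with each library left out. For progesterone the mt- count of 9 in the DOX arm was 4 to 8. The difference of the estradiol responses gave 20 nuclear calls, 35 with limma voom, 11 with only the groups compared and 8 to 36 with each library left out. Its mt- count of 0 was 1 with DESeq2 and 1 with limma voom, and 0 to 1 with each library left out. The replicate numbers did not pair the libraries over all groups. Of 45 same-number pairs 12 correlated above 0.1 (-0.297 to 0.398), and 5 of 18 libraries correlated best with their own number. Between DOX_OIL and PBS_OIL the same-number pairs correlated at 0.318, 0.398 and 0.091 for replicates 1, 2 and 3. Whether some groups share a batch was not tested. Under the replicate block no other count moved by over 1.5 times. Depth limits the rarest tested isoforms named here, Cox7a1 and Cox8b, which held 3 to 61 counts.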
